A study of Mus musculus with 12 samples.

Results

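Axon guidance ligands and receptors were examined in blood-forming clusters and endothelium of the embryonic arteries of the mouse. The members are the 66 genes, of 33531 in the expression table, whose symbols name a semaphorin of classes 3 to 7, a plexin, an ephrin, an Eph receptor, a Slit, a Robo, a netrin or an Unc5 receptor. The series has 12 RNA-seq libraries from 4 sorted populations, with 3 independent pools of cells for each; how many cells a pool held is not stated. At embryonic day 11.5, litters of F1 dams (C57BL/6 x 129S1/SVImJ) sired by Tg(Ly6a-GFP) males were used, so all populations share the transgene and the B6129S background, and GFP reports activity of the transgene, not of Ly6a itself. Hematopoietic cluster cells (HC) were sorted as CD31+ CD144+ ESAM+ c-Kit+ and endothelial cells (EC) as CD31+ CD144+ ESAM+ c-Kit-, each split into Ly6a-GFP+ and Ly6a-GFP- cells. The dorsal aorta, umbilical and vitelline arteries of 122 embryos were combined, so values are means over vessels and embryos, and sorting gave 53000 HC with GFP and 413000 without it, and 377000 EC with GFP and 791000 without it.

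Axon guidance proteins were first described as cues that attract or repel growing nerve fibres, and many of them also act in blood vessels. Secreted class 3 semaphorins signal through plexins with neuropilin co-receptors, membrane-bound semaphorins bind plexins directly, ephrins on one cell bind Eph receptors on its neighbour with signals in both directions, Slits bind Robo receptors, and netrins bind Unc5 receptors. In vessels, ephrin-B2 (Efnb2) is a classical marker of arteries and its receptor EphB4 (Ephb4) of veins, Unc5b is a netrin receptor of arterial and sprouting endothelium, and plexin-D1 (Plxnd1) and Robo4 are largely endothelial.

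Expression was given as FPKM, that is, fragments per kilobase of transcript scaled to the mapped fragments of the library, so levels of different genes can be set side by side, but the read depth is unknown. FPKM summed to between 555675 and 691948 per library. Levels are FPKM in replicates 1, 2 and 3, or mean ± SD (n = 3). A change is a log2 fold change ± SE of FPKM + 1, a scale on which low genes change by less than their ratio. All adjusted p-values are from limma with Benjamini-Hochberg adjustment over the 13278 genes that reached FPKM 1 in 3 or more libraries, and a gene was called at an adjusted p under 0.05. Mean FPKM of Ly6a was 5.83 ± 1.96 in GFP+ HC and 0.768 ± 0.709 in GFP- HC, and 8.76 ± 0.319 against 0.896 ± 0.728 in the EC. The 8 endothelial markers summed to between 1995 and 3771 FPKM in all libraries, whereas the 8 hematopoietic markers summed to between 157 and 193 in GFP+ HC, 56.1 and 76.1 in GFP- HC and 24.8 and 41.9 in EC. Kit, the gate that divides the types, had mean FPKM of 35.5 ± 3.18 (GFP+) and 21.4 ± 3.84 (GFP-) among HC. Its means among EC were 14.0 ± 0.62 (GFP+) and 16.3 ± 3.18 (GFP-). Between HC and EC, Kit was called among GFP+ cells (log2 1.28, adjusted p = 0.000343). Among GFP- cells the 0.38 did not pass (adjusted p = 0.193), although the libraries did not overlap. The 15 smooth muscle and mesenchyme markers summed to 1489 and 1482 FPKM in HC GFP- replicates 1 and 3 and to 1076 and 1437 in EC GFP- replicates 1 and 3, against 293 to 647 in the other 8 libraries. Calls were therefore also made without these 4 libraries, and with the mean log2 level of these markers as a term of the model (the mesenchyme covariate). The 7 macrophage markers summed to between 177 and 1075 FPKM in HC, highest in HC GFP+ replicate 3, and to at most 24.7 in EC. The 8 erythroid markers differed with GFP in both types, with sums of 779 to 1068 FPKM in GFP+ HC against 5833 to 9043 in GFP- HC and 876 to 2252 in GFP+ EC against 3147 to 7244 in GFP- EC, and their part in the GFP differences of the members was not tested. Of 13 neural and neural crest markers, Gap43 was at 63.9 to 77.7 FPKM in the population means and no other marker exceeded the 5.96 of Map2 in any library. In bulk samples, fewer cells of a type and less RNA per cell cannot be told apart.

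Most members were detected, but in several families 1 gene held most of the summed FPKM. FPKM was above 0 in all 12 libraries for 61 of the 66 members, 30 reached a mean of 5 or more in at least 1 population, and 8 reached a mean of 50 or more. These 8 were Plxnd1, Ephb4, Efna1, Efnb2, Robo4, Sema3g, Unc5b and Sema4c. Plxnd1 alone made up 77.9 to 88.6% of the summed FPKM of the 9 plexins, Ephb4 87.2 to 95.5% of the 5 EphB receptors, and Efna1 77.3 to 90.9% of the 5 ephrin-A genes. Among the 3 ephrin-B genes, Efnb2 took 57 to 85.6%, and Unc5b took 73.1 to 96.2% of the 4 Unc5 receptors. Other families were shared more evenly, such as the class 6 semaphorins, where Sema6d led at 30.4 to 41.1%. The leading share also varied widely, from 28.6 to 70.6% for Ntn1 among netrins and 34.5 to 70.3% for Slit3 among Slits. For Sema3g among class 3 semaphorins it was 22.7 to 73.0%. Of the 66 members, 53 passed the filter on low values and were tested. The other 13 (Efna5, Epha1, Epha5, Epha6, Epha8, Epha10, Ntn5, Plxnb3, Robo3, Sema3e, Sema4f, Slit1 and Unc5d) never exceeded 1.47 FPKM. The highest population mean of a tested member lay in EC for 35 and in HC for 18, and the same split over all tested genes is not given.

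**Figure D1:**
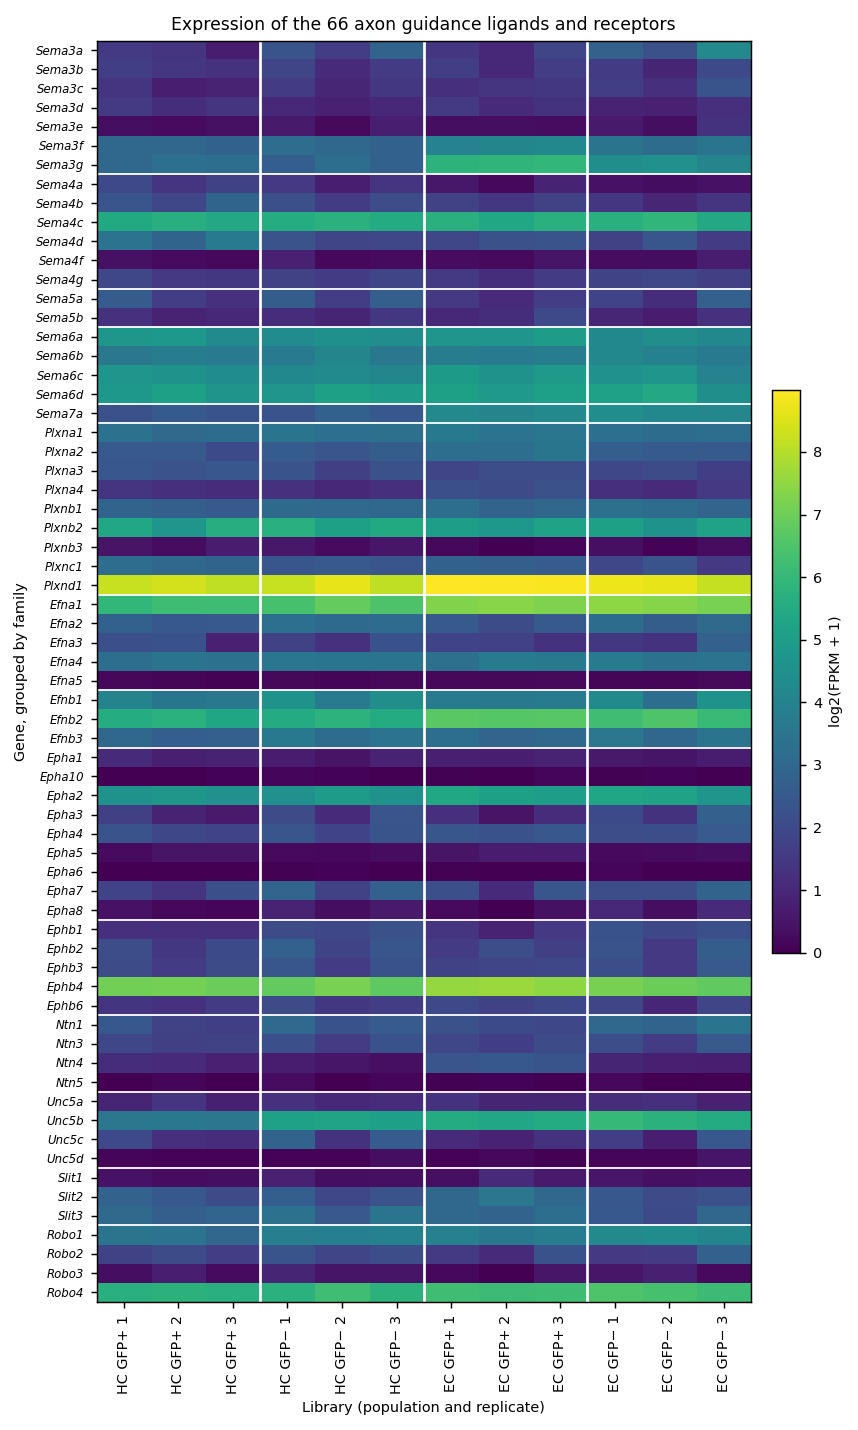
Heat map of log2(FPKM + 1) for the 66 members (rows, grouped by family) in the 12 libraries (columns, 3 per population; HC, hematopoietic cluster cells; EC, endothelial cells). A few rows, such as Plxnd1, Ephb4, Efna1 and Efnb2, are bright in all 12 libraries, and most rows are dim throughout.

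**Figure D2:**
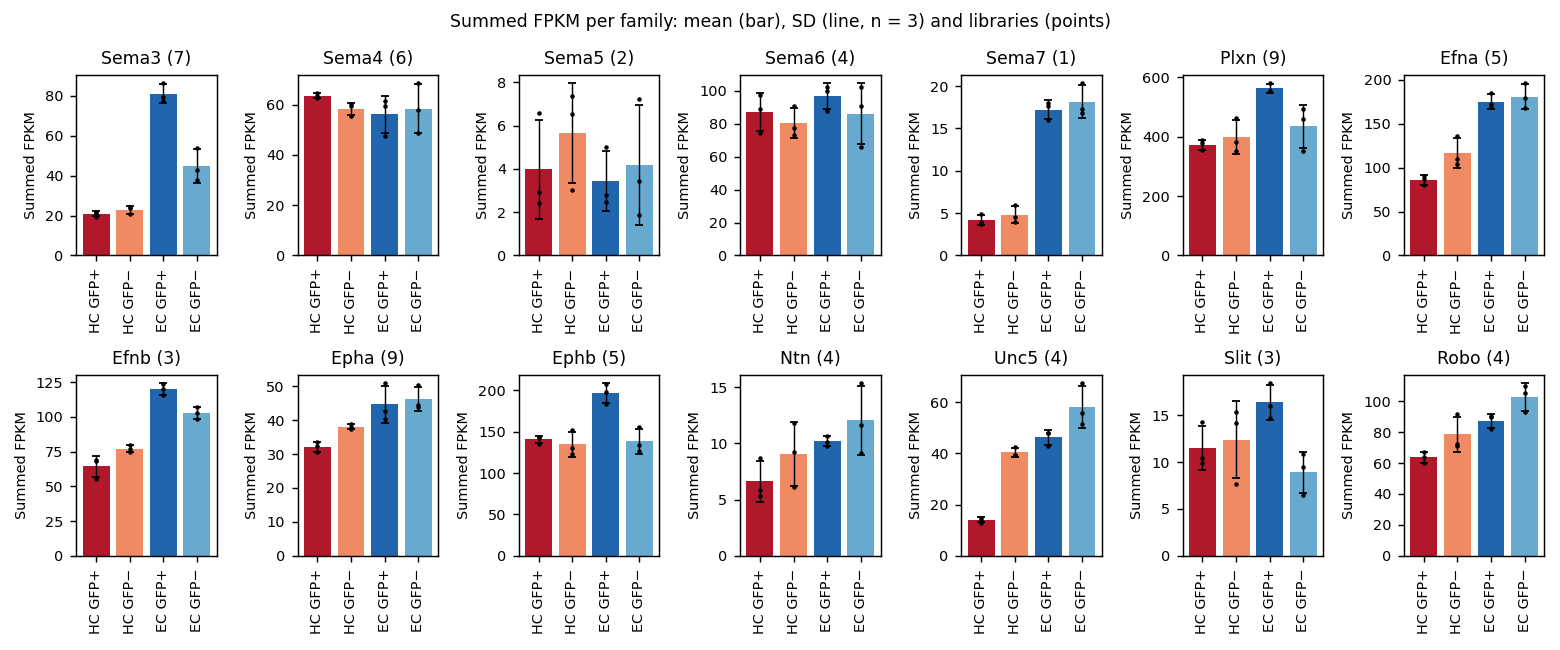
Summed FPKM of the members of each family (number of members in parentheses) by population, as mean (bar), SD (line, n = 3) and single libraries (points). The class 3 semaphorins sum to 81.0 FPKM in GFP+ EC and 20.8 to 44.8 in the other populations, and the Unc5 receptors to 14.0 in GFP+ HC and 40.4 to 58.1 elsewhere.

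Members differed most often between cell types among GFP+ cells and between GFP+ and GFP- endothelium. Between HC and EC among GFP+ cells, 15 of 53 were called, 2 higher and 13 lower in HC, where 14.3% of all tested genes were called (8.21% higher and 6.09% lower). Among GFP- cells, HC and EC differed in 5 of 53, all lower in HC, against 4.29% of all tested genes (2.36% higher and 1.93% lower). GFP+ and GFP- EC differed in 14 of 53, 9 higher and 5 lower in GFP+ cells, against 13.5% of all tested genes (6.96% higher and 6.51% lower). In HC the reporter separated 4 of 53, 1 higher and 3 lower in GFP+ cells, against 4.26% of all tested genes (2.98% higher and 1.28% lower). For 2 of 53, Unc5b and Sema3g, the GFP effect of HC minus that of EC was called, both below 0, against 0.527% of all tested genes (0.188% higher and 0.339% lower). The median log2 change of the tested members was -0.14 between HC and EC among GFP+ cells, -0.05 among GFP- cells, -0.01 between GFP+ and GFP- EC and -0.15 between GFP+ and GFP- HC, and over all tested genes the medians were 0.05, 0.01, -0.03 and 0.00. Libraries of the compared populations did not overlap for 22 members between HC and EC among GFP+ cells (5 higher and 17 lower in HC; 33.3% of all tested genes, 19.6% higher and 13.8% lower). Among GFP- cells this held for 11 (4 higher and 7 lower; 23.8%, 13.4% and 10.4%). By GFP it held for 21 in EC (13 higher and 8 lower; 31.6%, 14.8% and 16.7%) and for 14 in HC (5 higher and 9 lower; 23.6%, 13% and 10.5%). Of the 53 tested members, 22 were called in at least 1 of the 5 comparisons, for which the share over all tested genes is not given. With libraries scaled to an equal FPKM sum, the split in EC was 12 higher and 2 lower, while the median of all tested genes moved to 0.14. In HC the split was 1 higher and 6 lower after quantile normalization. Without the 4 GFP- libraries high in mesenchyme markers, 1 library was left in each GFP- population. Fewer members were then called by GFP in EC and in HC, and between HC and EC among GFP- cells. The median log2 changes of the 53 tested members were 0.20, -0.00055 and -0.08, against -0.01, 0.01 and 0.02 over all tested genes. Shares of all tested genes called under these alternatives are not given, so the counts cannot be read as particular to the members.

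**Figure D3:**
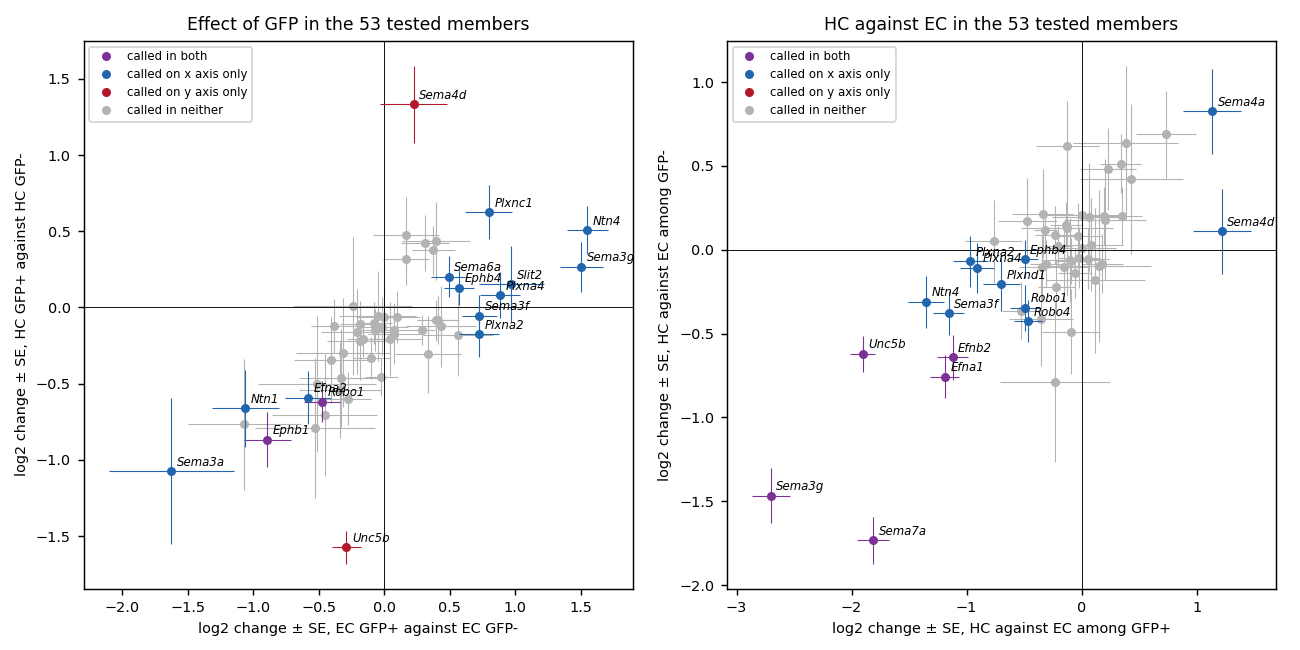
Log2 changes ± SE of the 53 tested members: left, GFP+ against GFP- in EC (x axis) and HC (y axis); right, HC against EC among GFP+ (x axis) and GFP- cells (y axis), with called members coloured and named. Unc5b lies far below 0 in HC and near 0 in EC on the left, and Sema3g, Sema7a, Unc5b, Efna1 and Efnb2 are called on both axes on the right.

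The netrin receptor Unc5b was lowest in GFP+ cluster cells. It stood at 10.9, 11.2 and 10.9 FPKM in GFP+ HC and at 34.5, 36.9 and 32.7 in GFP- HC. Endothelium held 45.4, 40.9 and 45.5 FPKM in GFP+ and 63.7, 53.6 and 45.7 in GFP- cells. All 3 GFP+ HC libraries lay below the other 9. Erythroid markers also differed between GFP+ HC (779 to 1068 FPKM) and GFP- HC (5833 to 9043), and their part in this difference was not tested. The change from GFP- to GFP+ HC was -1.57 ± 0.11 (adjusted p = 1.89e-05), or 3.16-fold lower. Against GFP+ EC, the GFP+ HC level was 4-fold lower (log2 -1.91 ± 0.11, adjusted p = 5.52e-06). The GFP- HC were lower than the GFP- EC by less (log2 -0.62 ± 0.11, adjusted p = 0.0114). That call was lost without HC GFP- replicate 1 (-0.62) or 3 (-0.58) and with only the groups compared (-0.62). It was also lost without the 4 libraries high in mesenchyme markers (-0.53). In EC the GFP effect of -0.29 did not pass (adjusted p = 0.101, 95% interval -0.53 to -0.05), although it did without EC GFP- replicate 3 (-0.40). The EC libraries did not overlap by GFP either, the closest being 45.5 (GFP+) and 45.7 FPKM (GFP-). The GFP effect differed between HC and EC by -1.28 ± 0.15 (adjusted p = 0.00549), and this call and that between GFP+ and GFP- HC were the same under every alternative tried.

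The upstream sequences of Unc5b and Sema3g are shown because these were the 2 members whose GFP effect was called different between the cell types. Each is the 250 bases before the gene's start, 5′ to 3′ on the gene's strand, from RefSeq on GRCm38.p6, a newer build than the mm9 of the expression table. Unc5b lies on the minus strand (chr10:60831582-60831831) and Sema3g on the plus strand (chr14:31217623-31217872). Capitals mark exact matches, on either strand, to GATAAG (read by GATA factors), TGTGGT (RUNX), CCGGAA (ETS) or TGGGAA (RBPJ, the Notch effector).
Unc5b: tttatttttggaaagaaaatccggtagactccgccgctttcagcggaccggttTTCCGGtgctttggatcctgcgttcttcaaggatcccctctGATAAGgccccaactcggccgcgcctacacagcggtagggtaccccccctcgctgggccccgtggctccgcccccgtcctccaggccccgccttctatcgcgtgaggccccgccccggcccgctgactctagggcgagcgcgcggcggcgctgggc
Sema3g: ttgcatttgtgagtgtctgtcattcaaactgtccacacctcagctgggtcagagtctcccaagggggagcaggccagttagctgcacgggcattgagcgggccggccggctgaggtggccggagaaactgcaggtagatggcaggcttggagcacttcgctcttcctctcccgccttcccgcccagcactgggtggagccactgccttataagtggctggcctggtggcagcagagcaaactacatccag
In the Unc5b window, GATAAG lay 156 to 151 bases before the start, and TTCCGG, the reverse complement of CCGGAA, 197 to 192 bases before it, with no overlap. The Sema3g window held none of these letters. Among 32851 windows of this length, 6.55% held GATAAG, 14.0% TGTGGT, 12% CCGGAA and 21.6% TGGGAA. Of the 66 members 57 had a window, and their 73 windows held these motifs in 2, 9, 7 and 13 cases. A match is only a string of letters and was not tested for binding.

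The other Unc5 receptors were weak. Unc5a was at 1.06 to 1.22 FPKM in the population means and Unc5d never exceeded 0.413. Unc5c was at 2.99, 1.37 and 1.26 FPKM in GFP+ HC and 6.30, 1.48 and 5.09 in GFP- HC, and at 1.09, 0.844 and 1.51 in GFP+ EC and 2.18, 0.703 and 4.40 in GFP- EC. It was not called in any comparison, and its 3 highest libraries were 3 of the 4 highest in mesenchyme markers.

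Of the netrins, the secreted ligands of Unc5 receptors, Ntn4 and Ntn1 differed by GFP in endothelium and in opposite directions. Ntn4, a netrin of basement membranes, was at 4.18, 4.51 and 4.01 FPKM in GFP+ EC and at 0.916, 0.747 and 0.705 in GFP- EC. In HC it was at 1.28, 1.13 and 0.772 FPKM in GFP+ cells and 0.608, 0.441 and 0.293 in GFP- cells. The 3 GFP+ EC libraries stood apart from the other 9. In EC, Ntn4 rose 5.36-fold with GFP (log2 1.55 ± 0.16, adjusted p = 0.000113) and GFP+ HC were 3.99-fold below GFP+ EC (log2 -1.35 ± 0.16, adjusted p = 0.000332). Its smaller difference between GFP+ and GFP- HC was not called. The GFP effect of HC minus that of EC was -1.04 for Ntn4 and did not pass (adjusted p = 0.0692).

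Ntn1, the classical secreted netrin, was lower in GFP+ EC, at 3.65, 3.05 and 2.89 FPKM against 7.12, 6.47 and 9.96 (log2 -1.06 ± 0.25, adjusted p = 0.0194). This call was lost without EC GFP+ replicate 2 (-1.04) or 3 (-1.01), without EC GFP- replicate 3 (-0.90), without the 4 libraries high in mesenchyme markers (-0.84), and with the mesenchyme covariate (-0.74). Among HC the Ntn1 libraries overlapped, with means of 3.06 ± 1.33 FPKM (GFP+) and 5.39 ± 1.84 (GFP-). Ntn3 was not called and stayed between 1.93 and 4.65 FPKM in all libraries.

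Of the 6 tested class 3 semaphorins, which are secreted, Sema3g and Sema3f were highest in GFP+ EC, Sema3a was lower there than in GFP- EC, and the other 3 were not called. Sema3g, a semaphorin of arterial endothelium, was at 55.1, 57.9 and 60.6 FPKM in GFP+ EC and 21.4, 22.5 and 15.9 in GFP- EC, and at 6.93, 8.63 and 8.62 in GFP+ HC and 5.45, 8.53 and 5.87 in GFP- HC. The EC libraries did not overlap with each other by GFP or with any HC library, while the HC overlapped. In EC, Sema3g rose 2.90-fold with GFP (log2 1.5 ± 0.16, adjusted p = 0.000186). GFP+ HC held 7.17-fold less than GFP+ EC (log2 -2.70 ± 0.16, adjusted p = 6.29e-06) and GFP- HC 3.01-fold less than GFP- EC (log2 -1.47 ± 0.16, adjusted p = 0.00137). The call among GFP- cells was lost without the 4 libraries high in mesenchyme markers (-1.30).

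The GFP effect on Sema3g in HC minus that in EC was -1.24 ± 0.23 (adjusted p = 0.0476), just inside the threshold. It was no longer called without any 1 of 11 libraries, all but EC GFP- replicate 2 (-1.35 to -1.06), nor under 5 other alternatives. The 12 arterial markers summed to 903 to 937 FPKM in GFP+ EC, 368 to 474 in GFP- EC, and 178 to 241 in HC. Much of the EC difference lay in Gja5 (mean 269 in GFP+ and 40.4 in GFP- EC) and Gja4 (186 and 86.4). Only Cxcr4 had a lower mean in GFP+ EC (29.0) than in GFP- EC (34.2). In HC, Dll4 (12.8 in GFP+ and 18.2 in GFP-), Hey1, Notch1, Notch4 and Sox17 had the higher mean without GFP. The rest had the higher HC mean with GFP, such as Gja5 (33.8 in GFP+ and 5.88 in GFP-) and Jag1 (17.2 and 7.59). The part of these markers in the Sema3g result was not tested.

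Sema3f was likewise highest in GFP+ EC. It was at 15, 16.3 and 17.4 FPKM in GFP+ EC, 9.95, 8.10 and 10.3 in GFP- EC, and between 5.89 and 8.32 in all 6 HC libraries. The rise in GFP+ over GFP- EC was 0.73 ± 0.13 (adjusted p = 0.00534), and GFP+ HC were 2.41-fold below GFP+ EC (log2 -1.16 ± 0.13, adjusted p = 0.00034). Among GFP- cells the lower HC level was not called.

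Sema3a, the prototype repellent, went the other way. It was at 1.67, 1.07 and 2.68 FPKM in GFP+ EC and 5.70, 3.74 and 17.8 in GFP- EC (log2 -1.63 ± 0.48, adjusted p = 0.0453). EC GFP- replicate 3, with 1437 FPKM of mesenchyme markers, gave the highest value. The call was lost without that library (-1.05), without EC GFP- replicate 1 (-1.79), EC GFP+ replicate 1, 2 or 3 (-1.84 to -1.43), HC GFP+ replicate 1 or 2 or HC GFP- replicate 1 or 3 (-1.63 each). The call was lost, too, without the 4 libraries high in mesenchyme markers (-0.80) and with the mesenchyme covariate (-0.91). The remaining tested class 3 members, Sema3b, Sema3c and Sema3d, had population means of 0.921 to 2.53 FPKM and were not called.

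Sema7a, a membrane-anchored semaphorin that binds plexin-C1 and integrins, separated the cell types in both GFP fractions. It was at 3.74, 4.87 and 4 FPKM in GFP+ HC and 3.91, 5.91 and 4.58 in GFP- HC, against 17.7, 15.9 and 18.0 in GFP+ EC and 20.3, 17.3 and 16.8 in GFP- EC. Every EC library was above every HC library, and within each type the GFP groups overlapped. HC were lower 4.09-fold among GFP+ cells (log2 -1.81 ± 0.14, adjusted p = 3.02e-05) and 3.78-fold among GFP- cells (log2 -1.73 ± 0.14, adjusted p = 0.000196). The GFP effects were -0.15 in HC (95% interval -0.46 to 0.16) and -0.07 in EC (-0.38 to 0.24; 0.12 with equal FPKM sums), neither of them called. The call among GFP- cells was lost only without the 4 libraries high in mesenchyme markers, of the alternatives tried (-1.41).

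Class 4 semaphorins, membrane proteins known from immune cells, held the only 2 members called higher in HC than in EC, both among GFP+ cells. Sema4d, the plexin-B ligand CD100, was at 9.82, 6.51 and 12.5 FPKM in GFP+ HC against 3.96, 2.64 and 2.80 in GFP- HC. It was at 2.75, 3.71 and 3.92 FPKM in GFP+ EC and 2.41, 4.29 and 2.03 in GFP- EC, so that the GFP+ HC alone stood apart. The rise in GFP+ HC was 3.07-fold over GFP- HC (log2 1.33 ± 0.25, adjusted p = 0.013) and 2.78-fold over GFP+ EC (log2 1.22 ± 0.25, adjusted p = 0.00862). The call by GFP was lost without HC GFP+ replicate 3 (1.14), on removal of HC GFP- replicate 2 (1.25) or 3 (1.28), without the 4 libraries high in mesenchyme markers (1.5) and with the mesenchyme covariate (1.24). Macrophage markers in replicates 1, 2 and 3 summed to 525, 177 and 1075 FPKM in GFP+ HC and 601, 183 and 484 in GFP- HC. Within GFP+ HC and within GFP- HC, Sema4d followed the same order as these markers. Their part in the difference was not tested.

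Sema4a, another immune semaphorin, was at 2.91, 1.58 and 2.30 FPKM in GFP+ HC and 1.84, 0.693 and 1.58 in GFP- HC. The EC libraries held 0.486, 0.133 and 0.870 with GFP and 0.342, 0.230 and 0.352 without it. Among GFP+ cells HC had more Sema4a (log2 1.13 ± 0.25, adjusted p = 0.0122, lost without HC GFP+ replicate 1 at 0.99), and among GFP- cells the 0.83 did not pass (adjusted p = 0.0988) although the libraries did not overlap. Sema4a libraries were lowest in replicate 2 of HC, as were the macrophage markers.

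Sema4c, the best expressed of class 4, was not called and had mean FPKM of 44.9 ± 4.34 (GFP+) and 48.2 ± 4.03 (GFP-) among HC and of 48.0 ± 6.33 (GFP+) and 50.9 ± 9.07 (GFP-) among EC. Sema4b and Sema4g, with population means of 1.42 to 4.42 FPKM, were not called.

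Class 6 semaphorins, transmembrane ligands of class A plexins, had 1 call among 4 tested members. Sema6a was at 24.9, 24.5 and 29.5 FPKM in GFP+ EC and 17.3, 20.7 and 17.3 in GFP- EC (log2 0.49 ± 0.13, adjusted p = 0.0344). That call was lost without EC GFP+ replicate 1, 2 or 3, EC GFP- replicate 1 or 3, or HC GFP- replicate 3 (0.41 to 0.54), and in 10 of 23 alternatives in all. HC means of Sema6a were 24.0 ± 4.36 FPKM (GFP+) and 20.5 ± 1.4 (GFP-). Sema6b (11 to 16.9 FPKM over all libraries), Sema6c (14.9 to 29.0) and Sema6d (21.5 to 42.0) were not called. The class 5 members Sema5a and Sema5b stayed at or below 5.84 FPKM and were not called.

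Among the plexins, the semaphorin receptors, Plxnd1 had the highest level of all members. It was at 508, 491 and 480.4 FPKM in GFP+ EC and 429, 407 and 292 in GFP- EC, and at 302, 333 and 278 in GFP+ HC and 298, 401 and 277 in GFP- HC. The GFP+ EC libraries were above all others, and the GFP- populations overlapped. GFP+ HC were 1.62-fold below GFP+ EC (log2 -0.70 ± 0.16, adjusted p = 0.0132), a call lost without HC GFP+ replicate 3 (-0.64).

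Plxna2 and Plxna4, class A plexins, were highest in GFP+ EC and nearly level elsewhere. Plxna2 was at 8.56, 8.44 and 10.2 FPKM in GFP+ EC and 5.51, 4.90 and 4.84 in GFP- EC, and its HC means were 4.19 ± 0.946 (GFP+) and 4.82 ± 0.593 (GFP-). Plxna4 was at 3.55, 3.26 and 3.67 FPKM in GFP+ EC, and the other 9 libraries lay between 1.05 and 1.80. Both rose in GFP+ over GFP- EC (log2 0.72 ± 0.15, adjusted p = 0.01 for Plxna2; log2 0.88 ± 0.15, adjusted p = 0.0033 for Plxna4) and both were below GFP+ EC in GFP+ HC (log2 -0.97, adjusted p = 0.00181 and log2 -0.91, adjusted p = 0.00244). Without the 4 libraries high in mesenchyme markers the GFP calls in EC were lost (0.77 for Plxna2 and 1.05 for Plxna4).

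Plxnc1, the receptor of Sema7a, was higher with GFP. Its levels were 5.97, 5.56 and 5.08 FPKM in GFP+ EC and 2.78, 3.92 and 1.84 in GFP- EC (log2 0.80 ± 0.18, adjusted p = 0.0144). They were 8.36, 7.08 and 6.48 FPKM in GFP+ HC and 4.31, 4.66 and 4.13 in GFP- HC, where the 0.62 did not pass (adjusted p = 0.0846) although the libraries did not overlap. The EC call was lost without EC GFP+ replicate 1 (0.75), without the 4 libraries high in mesenchyme markers (0.41) and with the mesenchyme covariate (0.62). By their means, Plxnc1 was highest and its ligand Sema7a lowest in GFP+ HC. Neither was called by GFP in HC, where the Sema7a libraries overlapped, and Plxnc1 was not called between HC and EC. Plxna1, Plxna3, Plxnb1 and Plxnb2 were not called. Plxnb2, the best expressed class B plexin, ranged from 22.8 to 51.8 FPKM and was lowest in replicate 2 of each population.

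Ephrin-B2 and EphB4, the arterial and venous markers, were both strongly expressed in all populations. Efnb2 was at 103, 98.1 and 101 FPKM in GFP+ EC and 74.2, 91.6 and 65.4 in GFP- EC. In HC it was at 47.0, 52.4 and 39.0 FPKM in GFP+ and 45.5, 55.1 and 45.8 in GFP- cells. No HC library reached the lowest EC library, and the HC overlapped by GFP. HC were lower by 2.19-fold among GFP+ cells (log2 -1.12 ± 0.13, adjusted p = 0.000413) and 1.58-fold among GFP- cells (log2 -0.64 ± 0.13, adjusted p = 0.0254). Among GFP- cells the call was lost without replicate 1 (-0.66) or 2 (-0.51) of the EC, without replicate 1 (-0.59) or 3 (-0.60) of the HC, without the 4 libraries high in mesenchyme markers (-0.72) and under 4 further alternatives. Between GFP+ and GFP- EC the 0.40 did not pass (adjusted p = 0.0758), but it did without EC GFP- replicate 2 (0.53), with the replicate block (0.40) and with equal FPKM sums (0.60).

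Ephb4 was at 189, 198 and 174 FPKM in GFP+ EC and 142, 126 and 110.5 in GFP- EC. It was at 133, 138 and 126 FPKM in GFP+ HC and 113, 143 and 109 in GFP- HC. The GFP+ EC libraries were higher than all others, which overlapped. Ephb4 rose in GFP+ over GFP- EC (log2 0.57 ± 0.11, adjusted p = 0.00859), a call kept under all 23 alternatives, and GFP+ HC were below GFP+ EC (log2 -0.50 ± 0.11, adjusted p = 0.0146, lost without EC GFP+ replicate 2 at -0.45 or HC GFP+ replicate 3 at -0.46). Among GFP- cells HC and EC differed by -0.05 (95% interval -0.31 to 0.20), or by 0.18 without the 4 libraries high in mesenchyme markers. Efnb2 divided by Ephb4, both in FPKM, gave 0.353, 0.381 and 0.309 in the GFP+ and 0.401, 0.386 and 0.422 in the GFP- HC libraries. The EC libraries gave 0.546, 0.495 and 0.581 with GFP and 0.523, 0.727 and 0.592 without it. Every EC ratio was above every HC ratio, and Ephb4 exceeded Efnb2 in each library.

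**Figure D4:**
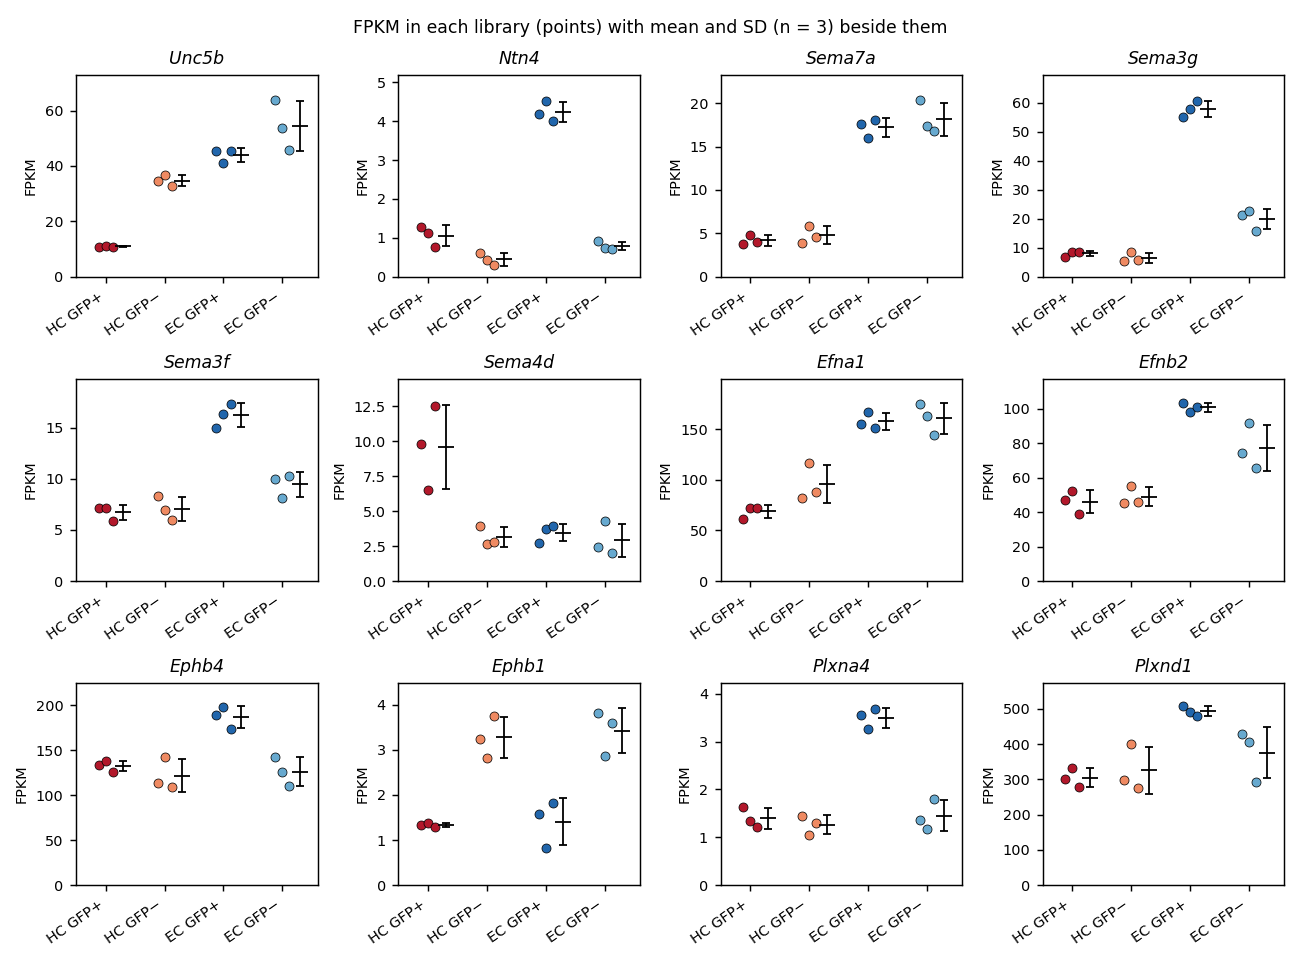
FPKM of 12 members in each library (points, replicates 1 to 3 from left to right) with mean and SD (n = 3), for HC and EC split by GFP; each panel has its own linear axis from 0. Ntn4, Sema3g, Plxna4 and Ephb4 are highest in GFP+ EC, Sema7a and Efna1 are high in both EC populations, Unc5b is lowest in GFP+ HC and Sema4d highest there, and Ephb1 is low in both GFP+ populations.

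Ephrin-A1 (Efna1), the ligand of EphA2 in endothelium, was higher in EC of either kind. It was at 155, 167 and 151 FPKM in GFP+ EC and 175, 163 and 144 in GFP- EC, against 61.7, 72.4 and 71.8 in GFP+ HC and 81.9, 117 and 87.7 in GFP- HC. Every EC library was above every HC library. HC were 2.30-fold lower among GFP+ cells (log2 -1.19 ± 0.13, adjusted p = 0.0002) and 1.68-fold lower among GFP- cells (log2 -0.76 ± 0.13, adjusted p = 0.00992). The second call was lost without HC GFP- replicate 1 (-0.66) and without the 4 libraries high in mesenchyme markers (-0.47). GFP+ HC had less Efna1 than GFP- HC with no overlap, but the -0.46 did not pass (adjusted p = 0.0757). Epha2, an ephrin-A receptor, was not called, with mean FPKM of 23.9 ± 1.82 (GFP+) and 25.2 ± 4.59 (GFP-) among HC and of 35 ± 4.74 (GFP+) and 32.9 ± 7.24 (GFP-) among EC.

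Efna2 and Ephb1 were lower in GFP+ cells. Ephb1, a receptor of ephrin-B ligands, was at 1.33, 1.37 and 1.30 FPKM in GFP+ HC and 3.25, 2.83 and 3.75 in GFP- HC, and at 1.57, 0.830 and 1.83 in GFP+ EC and 3.81, 2.86 and 3.59 in GFP- EC. All 6 GFP+ libraries were below all 6 GFP- libraries. The change was -0.87 ± 0.18 in HC (adjusted p = 0.0193) and -0.89 ± 0.18 in EC (adjusted p = 0.00817), with a difference of 0.03 between them (adjusted p = 0.984). The HC call was lost on removing replicate 1 (-0.87) or 3 (-0.86) of GFP+ HC or replicate 1 (-0.87) or 3 (-0.79) of GFP- HC, and with the mesenchyme covariate (-0.68). Without the 4 libraries high in mesenchyme markers both calls were lost (-0.71 in HC and -0.70 in EC).

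Efna2 was at 4.91, 3.22 and 4.86 FPKM in GFP+ EC and 8.02, 5.35 and 7.57 in GFP- EC (log2 -0.58 ± 0.17, adjusted p = 0.0471). It was at 5.86, 4.56 and 4.74 FPKM in GFP+ HC and 8.84, 7.50 and 7.95 in GFP- HC, where the -0.59 did not pass (adjusted p = 0.0915). Neither pair of groups overlapped. The EC call was lost under 18 of 23 alternatives, among them the removal of any 1 library other than EC GFP- replicate 2 (-0.67 to -0.42). The remaining ephrins and Eph receptors were not called. Of these, Efna4 stayed between 8.51 and 12.1 FPKM and Efnb3 between 5.48 and 11.5, and the tested receptors other than Ephb4 and Epha2 were at or below 6.69, the highest value of Epha7, in every library.

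Robo4, the endothelial Robo, and Robo1 were the best expressed Robo genes, and among GFP+ cells both were lower in HC. Robo4 was at 51.2, 53.5 and 50.7 FPKM in GFP+ HC and 53, 74.5 and 54.2 in GFP- HC, against 73.5, 69.9 and 72.7 in GFP+ EC and 89.8, 82.8 and 70.6 in GFP- EC. The GFP+ HC libraries were below those of GFP+ EC, and GFP- HC replicate 2 lay within the EC range. The lower level in GFP+ HC (log2 -0.47 ± 0.12, adjusted p = 0.0275) was not called without EC GFP+ replicate 1 (-0.45), 2 (-0.49) or 3 (-0.46) or HC GFP+ replicate 1 (-0.46) or 3 (-0.45).

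Robo1 was lower with GFP in both types. HC had 9.94, 9.75 and 6.85 FPKM with GFP and 13.4, 13.9 and 14.6 without it, and EC had 13.9, 11.1 and 13.1 with GFP and 17.8, 20.0 and 16.4 without it. The groups did not overlap within either type. The changes were -0.62 ± 0.14 in HC (adjusted p = 0.0278) and -0.47 ± 0.14 in EC (adjusted p = 0.0429), and GFP+ HC were below GFP+ EC by -0.49 ± 0.14 (adjusted p = 0.0352). All 3 calls were close to the threshold: they were lost under 8, 17 and 10 of 23 alternatives. The first ended without replicate 3 of the GFP+ HC (-0.46) and without replicate 1 (-0.65), 2 (-0.62) or 3 (-0.59) of the GFP- HC. Removing any 1 EC or GFP- HC library (-0.54 to -0.39) ended the second. The last ended without EC GFP+ replicate 1 (-0.43) or 3 (-0.47), HC GFP+ replicate 3 (-0.33), or EC GFP- replicate 1 or HC GFP- replicate 1 or 3 (-0.49 each).

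Among the Slits, the ligands of Robo receptors, Slit2 was at 7.27, 10.9 and 7.07 FPKM in GFP+ EC and 4.41, 3.19 and 3.69 in GFP- EC (log2 0.97 ± 0.25, adjusted p = 0.0267). This call was lost without EC GFP+ replicate 1 (1.05) or 2 (0.79), EC GFP- replicate 2 (0.88) or 3 (0.96), without the 4 libraries high in mesenchyme markers (1.15) and with no filter (0.97). HC means of Slit2 were 4.59 ± 1.52 FPKM (GFP+) and 4.03 ± 1.36 (GFP-). Slit3, at 3.05 to 9.94 FPKM over all libraries, and Robo2, at 1.09 to 5.74, were not called.

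The mesenchyme markers were lowest in replicate 2 of every population, and 12 of the 53 tested members were also lowest in replicate 2 of all 4 populations, as were 4.55% of all tested genes. The full order of the 3 libraries was that of the markers in all 4 populations for 1 of the 53 members and 0.821% of all tested genes. The 12 were Efna2, Efnb1, Efnb3, Epha7, Ephb6, Ntn3, Plxna1, Plxnb2, Sema3d, Sema4a, Sema4b and Slit3. Efnb1, for example, was at 22.7, 12 and 21.0 FPKM in GFP- HC and 18.2, 8.51 and 22.9 in GFP- EC, where the markers summed to 1489, 503 and 1482 and to 1076, 341 and 1437. In GFP+ cells Efnb1 was at 15.3, 10.4 and 10.8 FPKM (HC) and 12.3, 11.3 and 12.2 (EC), and it was not called in any comparison. The GFP calls of Unc5b in HC (-1.66 without the 4 high libraries) and of Ntn4 (1.58), Sema3g (1.32), Sema3f (0.92) and Ephb4 (0.56) in EC held in a fit with 1 library in each GFP- population. Of the 40 calls over the 5 comparisons, 20 held without these libraries and 31 with the mesenchyme covariate, and none changed sign. The part of mesenchymal cells in any call was not tested.

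**Figure D5:**
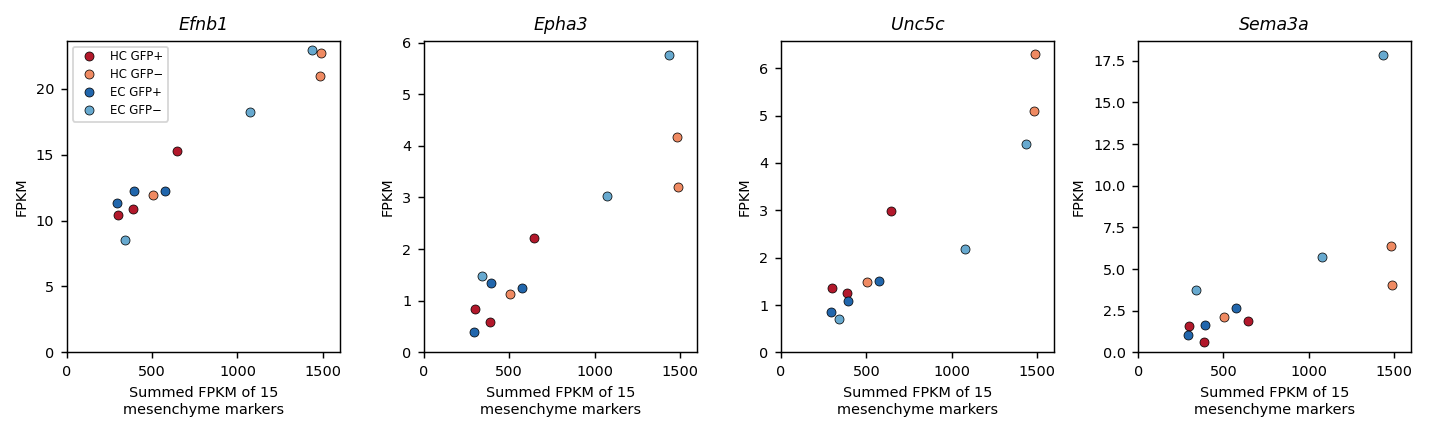
FPKM of Efnb1, Epha3, Unc5c and Sema3a (y axes, linear from 0) against the summed FPKM of 15 smooth muscle and mesenchyme markers (x axis) in the 12 libraries, coloured by population; the genes were chosen after their values were seen. The 4 GFP- libraries with marker sums above 1000 hold the highest values of Efnb1.

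The partner list of co-receptors, further ligands and effectors held 74 genes, of which 73 were in the table and 60 were tested. Between HC and EC among GFP+ cells 2 rose and 11 fell in HC (14.3% of all tested genes were called), and among GFP- cells 2 rose and 3 fell (4.29% of all tested genes). Between GFP+ and GFP- EC 8 rose and 2 fell in GFP+ cells (13.5% of all tested genes), and in HC 1 rose and 1 fell (4.26% of all tested genes). With limma, 0 partners passed for the difference of the GFP effects, and 11 had an unadjusted p under 0.05. The share of all tested genes at that unadjusted p is not given. The semaphorin co-receptor Nrp1 had mean FPKM of 49.6 ± 2.61 (GFP+) and 47.9 ± 3.35 (GFP-) among HC and of 91.4 ± 1.5 (GFP+) and 66.1 ± 5.32 (GFP-) among EC. Among GFP+ cells HC had less Nrp1 (log2 -0.87, adjusted p = 6.22e-05), as among GFP- cells (log2 -0.46, adjusted p = 0.0106) and GFP+ EC had more than GFP- EC (log2 0.46, adjusted p = 0.0032). Nrp2, its relative, was instead higher in GFP- HC, at 108.5 ± 4.3 FPKM, than in GFP- EC, at 67.6 ± 11.5 (log2 0.69, adjusted p = 0.00857).

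Ntng2, a membrane-anchored netrin-G, rose with GFP in EC (7.60 ± 0.438 against 2.33 ± 0.954 FPKM, log2 1.41, adjusted p = 0.000887) and in HC (5.70 ± 0.337 against 2.35 ± 0.39, log2 1.01, adjusted p = 0.0134). Met, the hepatocyte growth factor receptor that can pair with plexins, rose in GFP+ EC (4.36 ± 0.419 against 1.55 ± 0.319 FPKM, log2 1.08, adjusted p = 0.00131), as did Flrt2, a ligand of Unc5 receptors (43.6 ± 3.35 against 25.6 ± 4.8, log2 0.76, adjusted p = 0.00304). Pak1, a kinase downstream of Rac and Cdc42, exceeded its GFP+ EC level in GFP+ HC (14.8 ± 1.46 against 5.03 ± 0.473 FPKM, log2 1.39, adjusted p = 0.00047). Crmp1, which encodes a cytosolic mediator of semaphorin signals, fell with GFP in HC (log2 -0.41, adjusted p = 0.0311).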

How the data were processed

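Polyadenylated RNA of 12 libraries was analysed, with each library's population and replicate read from its title. The authors deposited FPKM values, 1 per gene symbol and library. The tools Cufflinks, DESeq, edgeR and featureCounts and build mm9 are named, without roles, per the submitters' processing notes. The aligner, annotation and strand setting were not stated there. The values could not be turned back into reads (among weakly expressed genes at most 2.30% shared the commonest ratio between 2 libraries), so depth and counting error are unknown and no count test was run.

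The log2(FPKM + 1) values were fitted by limma 3.58.1 (R 4.3.3), for genes reaching FPKM 1 in 3 or more libraries. A single model with 4 population means and 8 residual degrees of freedom, empirical Bayes moderation and an intensity trend gave 5 two-sided comparisons. Per the labels' protocols each pool is an independent biological sample, and the spread between pools is what the p-values rest on.

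Members were matched by symbol, and Unc5b, Efnb2, Ephb4, Sema7a and all members called in at least 1 comparison were given by library. The members and the partner and marker lists were chosen with earlier results of these data known. Partners could be named if among the first 4 called in a comparison by p; not all of these are given. Alternatives were pseudocount, filters, scalings, the samples fitted, the trend, a replicate block and leaving out each library. A mesenchyme score as a covariate and leaving out 4 libraries with over 1000 FPKM of mesenchyme markers were chosen after seeing the data.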

Additional observations from a re-analysis of the deposited data

Results flagged for a closer look

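The effect of the reporter on Unc5b differed in size between the cell types: GFP effect in HC minus that in EC was -1.28 on the log2 scale (limma, adjusted p = 0.00549). In both types the 3 GFP+ libraries lay below the 3 GFP- libraries without overlap, in EC only narrowly (45.5 against 45.7 FPKM at the closest). For Sema3g the same difference was -1.24 (adjusted p = 0.0476; over its alternatives the adjusted p ran from 0.00603 to 0.12), with the GFP+ libraries higher in EC and overlapping in HC.

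Plxna1 libraries separated HC from EC in opposite directions in the GFP+ and GFP- cells, but neither difference was called. All GFP+ HC libraries were below all GFP+ EC libraries (log2 -0.32, adjusted p = 0.056), and all GFP- HC libraries were above all GFP- EC libraries (log2 0.12, adjusted p = 0.58). The difference of these effects is the same quantity as the difference of the GFP effects, which did not pass (log2 -0.43, adjusted p = 0.237). Populations of 3 libraries were too small for a search for outlying samples.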

How the results depend on the processing

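Of 907 recomputed values of the 40 called changes, 756 kept direction and call, 151 kept the direction and lost the call, and 0 reversed; 16 of the 40 calls held under every alternative. The count of members called ranged, without 1 library at a time, from 1 to 6 between GFP+ and GFP- HC (4 with all), 8 to 13 between GFP+ and GFP- EC (14), 11 to 16 between HC and EC among GFP+ cells (15), 2 to 7 among GFP- cells (5), and 1 to 2 for the difference of GFP effects (2). Between GFP+ and GFP- HC it was 2 with the stricter filter, 7 after quantile normalization, 2 without the 4 libraries high in mesenchyme markers and 2 with the mesenchyme covariate. Between GFP+ and GFP- EC it was 8 with the stricter filter, 8 with only the groups compared, 4 without those 4 libraries and 9 with the covariate. Among GFP- cells it was 2 with only the groups compared and, with limma, 0 without those libraries (5 at an unadjusted p under 0.05). For the difference of GFP effects it was 1 with a pseudocount of 0.1, no filter, median ratio scaling, quantile normalization and without those libraries. The stricter filter tested 27 members and removing the 4 libraries left 1 in each GFP- population, which was assumed to vary like the others. The cause of the other changes was not tested. Shares of all tested genes called under the alternatives are not given, so a change in these counts cannot be read as particular to the members. Small changes that were not called reversed: the GFP effect in HC did so for Efnb2 on leaving out single libraries (-0.18 to 0.029) and for Ephb4 without the 4 libraries (-0.11) and with the covariate (-0.0039). Ephb4 between HC and EC among GFP- cells became positive with equal FPKM sums (0.085), quantile normalization (0.037) and without the 4 libraries (0.18), and ran from -0.17 to 0.034 on leaving out single libraries. For Sema7a the GFP effect in EC was 0.12 with equal sums and -0.12 to 0.010 on leaving out single libraries, and the difference of its GFP effects was -0.19 to 0.055. Between same-numbered libraries, deviations from the population means correlated at -0.0845 to 0.27, over 0.1 in 4 of 18 pairs. Over the 36 other pairs the range was -0.221 to 0.218. The highest value, 0.27, lay between replicate 2 of GFP+ and of GFP- HC, and mesenchyme markers were lowest in replicate 2 of every population. Whether same-numbered pools share embryos is not stated, and the numbers were not taken to pair samples in the main fit. With the replicate block 6, 14, 18, 7 and 2 members were called in the 5 comparisons, in the order above, within 1.5 times the main counts.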
